A study of Mus musculus with 4 samples.

Results

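The Kruppel-like factor (KLF) genes described here are Klf1, Klf2, Klf3, Klf4, Klf5, Klf6, Klf7, Klf10, Klf11 and Klf13, 10 of the 21775 protein-coding genes used. They are part of the mouse KLF family, chosen with earlier results of these data known, and the peaks counted for each are those that overlap its body or the 1 kb on either side in the mouse build GRCm38, with peaks of the control antibody kept. The data come from CUT&Tag, in which a transposase bound to an antibody cuts adapters into nearby DNA. Haematopoietic stem cells were taken from bone marrow of Ppp2ca wild-type mice, and 2 libraries were made with an antibody against PPP2CA, the catalytic subunit of protein phosphatase 2A, and 2 with IgG, the control for untargeted cutting. Strain, age and sex are not stated in the labels. Peak lists measure no expression, so the cell type could not be checked against markers. The members took 17 of the 16811 peaks of PPP2CA 1, 18 of the 17686 of PPP2CA 2, 1 of the 561 of IgG 1 and 0 of the 310 of IgG 2.

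KLF proteins are transcription factors with zinc fingers at the carboxyl end that bind GC-rich and CACCC-type sequences in promoters and enhancers. The family is commonly sorted by its partners. KLF3 is a repressor that recruits CtBP, KLF10, KLF11 and KLF13 bind the SIN3A corepressor, and KLF1, KLF2, KLF4, KLF5, KLF6 and KLF7 act mainly as activators. In blood KLF1 is the activator of the red cell programme, KLF2 keeps T cells quiescent and KLF4 takes part in monocyte differentiation. Several members, among them Klf2, Klf4, Klf6 and Klf10, are known as genes that respond quickly to stimulation.

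All 10 members carried a peak in both PPP2CA libraries, against 47.1% of protein-coding genes, and 6 of the 10 had a best summit of 100 fragments or more in both, against 4.27%. Those 6 were Klf2, Klf10, Klf13, Klf6, Klf7 and Klf11. The members were chosen with results known, and Klf14, Klf15 and Klf17 had no peak in both libraries. These counts therefore describe the 10 genes and not the family. One member, Klf2, had an IgG peak, against 2.08% of protein-coding genes with a peak of either IgG library. Summit fragments are the height of a peak at its highest point, recovered from the deposited values and read as a number of sequenced fragments. Whether whole fragments or single reads were stacked is not stated. The median best summit of the members was 164 and 166.5 fragments in PPP2CA 1 and 2, against 26 and 28 over the protein-coding genes with a peak. The members had a median length of 10330 bp, against 17219 bp for all protein-coding genes. For protein-coding genes with a peak the median length was 23961 bp in PPP2CA 1 and 24012 bp in PPP2CA 2. Klf7, Klf13 and Klf3 were longer than these medians, at 92898, 52565 and 29381 bp. The part of gene length in the counts was not tested. In bulk chromatin, more signal per cell and signal in more of the cells cannot be told apart. The specificity of the antibody was not tested.

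The order of the members was nearly the same in both libraries. Summed over the PPP2CA libraries the best summits held 717 fragments at Klf2, 707 at Klf10, 595 at Klf13, 469 at Klf6, 456 at Klf7, 215 at Klf11, 168 at Klf4, 117 at Klf3, 74 at Klf1 and 26 at Klf5. By exact Poisson 95% intervals of these sums, which cover counting error only, neighbours in this order were separate except Klf2 and Klf10, Klf6 and Klf7, and Klf11 and Klf4. At the top of the order, 0.340% and 0.276% of protein-coding genes had a best summit at least as high as that of Klf2 in PPP2CA 1 and 2. At its lower end, 43.7% and 41.9% of protein-coding genes reached the level of Klf5.

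**Figure D1:**
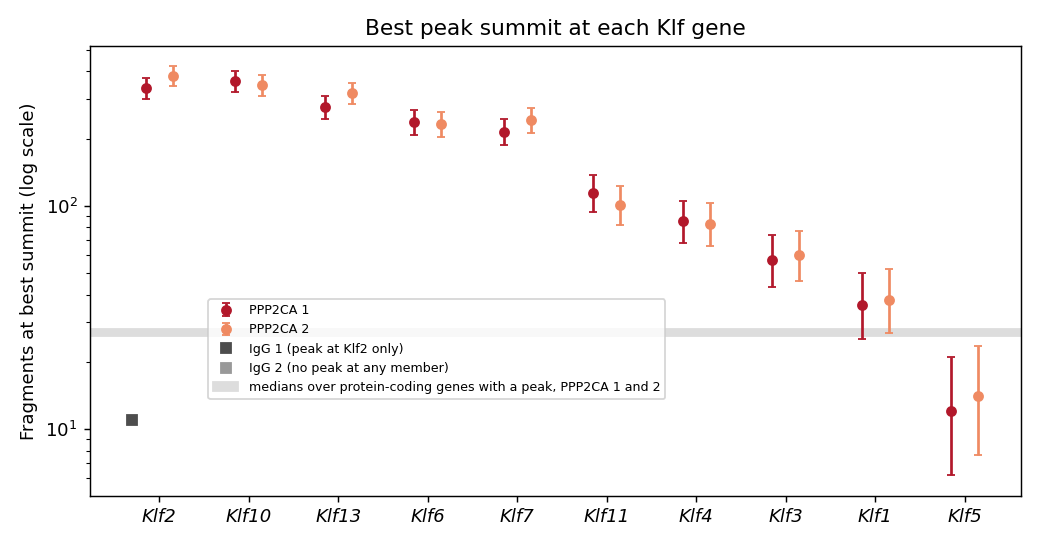
Fragments at the best summit of each KLF gene on a log axis, for the PPP2CA libraries (red and orange points with exact Poisson 95% bars) and the IgG libraries (grey squares, where a peak was called); the grey band marks the medians of 26 and 28 over protein-coding genes with a peak. Klf2 and Klf10 stand highest, Klf5 lies below the band, and the IgG 1 summit of 11 at Klf2 is the only IgG value.

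The upstream sequences of 4 members are shown for what lay over them. Klf2 had the highest summed summit, not separate from that of Klf10, and the only IgG peak, and its summits lay just inside the gene. Klf13 had the widest peak and Klf6 a narrower one, each with its summits in the printed stretch, and Klf1 had no peak there. Each is the 250 bases before the start annotated by RefSeq in GRCm38.p6, read 5′ to 3′. Capitals mark matches on either strand to the GC box (GGGCGG), the CCAAT box (CCAAT), the core of the cyclic AMP response element (TGACG) and, by name, the MEF2 site.
Klf2, chr8:72318812-72319061, plus strand: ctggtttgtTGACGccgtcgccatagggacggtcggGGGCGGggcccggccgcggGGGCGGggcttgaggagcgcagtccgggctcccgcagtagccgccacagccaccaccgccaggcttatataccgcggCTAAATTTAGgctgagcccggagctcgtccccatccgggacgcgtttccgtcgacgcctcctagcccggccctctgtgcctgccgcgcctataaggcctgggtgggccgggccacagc
Klf13, chr7:63938916-63939165, minus strand: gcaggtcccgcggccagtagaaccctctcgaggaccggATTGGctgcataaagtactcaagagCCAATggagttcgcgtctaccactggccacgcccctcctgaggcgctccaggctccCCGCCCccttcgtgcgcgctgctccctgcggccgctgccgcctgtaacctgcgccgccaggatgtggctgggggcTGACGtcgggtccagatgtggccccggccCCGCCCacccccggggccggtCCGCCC
Klf6, chr13:5861239-5861488, plus strand: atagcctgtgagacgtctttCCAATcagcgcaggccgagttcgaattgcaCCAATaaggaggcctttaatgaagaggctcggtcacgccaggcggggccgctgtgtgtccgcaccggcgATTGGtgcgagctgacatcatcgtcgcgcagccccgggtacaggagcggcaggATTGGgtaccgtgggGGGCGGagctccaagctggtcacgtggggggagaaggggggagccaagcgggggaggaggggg
Klf1, chr8:84901732-84901981, plus strand: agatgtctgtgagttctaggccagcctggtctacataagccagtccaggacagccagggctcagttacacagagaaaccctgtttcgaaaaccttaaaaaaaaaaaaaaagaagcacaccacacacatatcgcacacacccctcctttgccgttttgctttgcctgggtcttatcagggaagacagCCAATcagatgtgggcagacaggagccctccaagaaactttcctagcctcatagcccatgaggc

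Of the members, 8 have an entry in the promoter table used, a window of 250 bases before to 50 after the start; Klf5 and Klf10 have none. A GC box, the sequence bound by SP and KLF proteins themselves, was in 7 of these 8 windows, Klf1 being the exception, against 46.2% of the 21262 promoters of 17491 protein-coding genes, some with several, and 73.6% of those whose start lay under a peak of both PPP2CA libraries. Klf3 held 6 matches, Klf4 and Klf11 had 4 each and Klf13 had 3. The CCAAT box was in 4 windows, 4 times in that of Klf6, against 38.2% of promoters and 40.3% of those under a peak of both. TGACG was in 4 windows (Klf2, Klf3, Klf4 and Klf13), against 23.6% and 38.8%. A MEF2 site was found in Klf2 alone, 109 bases before the start, against 2.74% and 0.822%. MEF2 factors are the known link from the MEK5 and ERK5 kinases to Klf2. The core CACCC was in 5 windows, against 59.5% and 63.5%, and an E-box (CANNTG) in 6, against 69.0% and 58.4%. The full CACCC box (CCACACCC), the full response element (TGACGTCA), the AP-1 site (TGANTCA), the TATA box (TATAAA), the GATA site (AGATAA), the ETS site (CCGGAAG) and the CArG box were in 0 of 8. The GATA site was searched as AGATAA alone. Another form of it, TGATAA, stands on the opposite strand of the Klf1 stretch printed above. The matches are letters in a window and not binding sites.

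The promoters also differed in base composition. The windows of Klf11, Klf3, Klf4, Klf13 and Klf2 held 77.7%, 76.7%, 74.3%, 72.0% and 69.3% G and C, and those of Klf6, Klf7 and Klf1 held 63.0%, 58.3% and 51.3%. The median was 63.0% for promoters under a peak of both PPP2CA libraries and 52.0% for the rest. Klf1 had 3 CpG pairs in its window, against 16 to 42 in the other 7 and a median of 24 and 6 for promoters with and without such a peak. The median over all promoters was 56.3%. The part of base composition in the peaks was not tested.

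Among the members whose products bind SIN3A, Klf10 had the highest summits, with 361 and 346 fragments in PPP2CA 1 and 2. The gene, named for its early induction by transforming growth factor beta, lies on chromosome 15 at 38291464 to 38300711. Its single peak, at 38299051 to 38301399 in PPP2CA 1 and 38299028 to 38301468 in PPP2CA 2, was 2349 and 2441 bp wide and crossed the high-coordinate boundary. Only 0.238% and 0.187% of the peaks in the lists were as wide. Its summits lay 187 and 182 bp beyond that boundary, within 1 kb of the lncRNA gene Gm35248 as well.

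Klf13, whose product regulates the chemokine gene Ccl5 in T cells, was the member with the most peaks. It lies on the minus strand of chromosome 7 at 63886351 to 63938915 and had 5 peaks in each PPP2CA library. The peak over its start held 276 and 319 fragments, 231 and 228 bp upstream, and at 2638 and 2557 bp was wider than nearly all others in the lists (0.119% and 0.141% as wide or wider). Inside the gene, places 13.3, 27.0 and 41.7 kb from the start in PPP2CA 1 held 44, 48 and 31 fragments in that library and 53, 34 and 39 in PPP2CA 2. The lncRNA gene Gm27252 lies within 1 kb of the place at 41.7 kb. A further place was called in PPP2CA 1 alone with 13 fragments, and another in PPP2CA 2 alone with 29. Every peak inside Klf13 was lower than the one at its start in both libraries.

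Klf11, the close relative of Klf10, lies on the plus strand of chromosome 12 at 24651371 to 24662782. Its single peak covered the start and held 114 and 101 fragments, with summits 321 and 501 bp inside the gene. The fold over local background was 9.97 and 7.96.

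Among the activators Klf2 was the highest, with 336 and 381 fragments in PPP2CA 1 and 2 at its start and 11 in IgG 1. IgG 2 had no peak there. The gene spans only 2593 bp on the plus strand of chromosome 8, at 72319062 to 72321654. The summits lay 9 and 7 bp from the start in the PPP2CA libraries, and 9 bp from it in IgG 1, so the antibodies peaked at the same position. The lowest background of each list, read as its genome-wide background, was 9.34 times higher in PPP2CA 1 than in IgG 1. Library depth and untargeted cutting were not told apart in this ratio. After scaling by the ratio, the PPP2CA 1 summit was 3.27 times the IgG 1 summit (exact binomial 95% interval 1.80 to 6.61, counting error only). That IgG peak ranked 54 of 561 by −log10 q. No test was made between the antibodies, since with 2 libraries each the smallest exact permutation p is 1 in 3.

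Klf2 also had a peak past its end in both PPP2CA libraries, with 157 and 194 fragments at summits 745 and 824 bp beyond the gene. A peak of both libraries within 1 kb of the gene end was present at 1 of the 8 members with a known strand, against 4.06% of the 17491 genes with one. The local background at Klf2 was high, 45.3 and 52.2 fragments under the start peak, so the fold was 7.29 and 7.18 at the start and 3.38 and 3.56 past the end.

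Klf6, a widely expressed member that is induced early after stimulation, lies on the plus strand of chromosome 13 at 5861489 to 5870393. Its start peak held 237 and 232 fragments with summits 164 and 93 bp upstream. In PPP2CA 2 alone a second peak of 28 fragments lay 337 bp past the end. Klf7, best known from the growth of nerve axons, lies on the minus strand of chromosome 1 at 64029448 to 64122345. Its main peak held 214 and 242 fragments with the summit at the same base in both libraries, 447 bp upstream of the annotated start and 509 bp inside the outer gene boundary. The peak began 28 and 149 bp before that start and so did not cover it. This peak had the highest fold of any best peak at a member, 13.0 and 13.5, over a local background of 15.6 and 17.0 fragments. A small peak 42.8 and 42.7 kb into Klf7 held 13 and 12 fragments. The lncRNA gene Gm35880 lies within 1 kb of the main peak, and the lncRNA gene Gm13748 within 1 kb of the small one.

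Klf4, one of the factors used to reprogram somatic cells to pluripotency, lies on the minus strand of chromosome 4 at 55527137 to 55532475. Its peak held 85 and 83 fragments with summits 258 and 255 bp upstream, and the lncRNA gene Gm12506 lies within 1 kb of the peak. Klf1, on the plus strand of chromosome 8 at 84901982 to 84905291, had no peak over its start. Its single peak, 36 and 38 fragments high, had summits 1325 and 1242 bp inside the gene and stopped 915 and 714 bp short of the start. Klf5, a factor of proliferating epithelia, lies on chromosome 14 at 99298691 to 99313412 and was the lowest. Its peak near the low-coordinate boundary held 12 and 14 fragments. The summits of Klf5 lay 494 bp apart in the 2 libraries.

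Klf3, the CtBP-binding repressor, lies on the plus strand of chromosome 5 at 64803521 to 64832901. Its start peak held 57 and 60 fragments with summits 362 and 295 bp upstream, and the protein-coding gene Gm38457 lies within 1 kb of the same peak. Inside Klf3 each library had a further small peak, of 7 fragments in PPP2CA 1 and 11 in PPP2CA 2, at different places. The lncRNA gene Gm31684 lies within 1 kb of the one in PPP2CA 1.

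**Figure D2:**
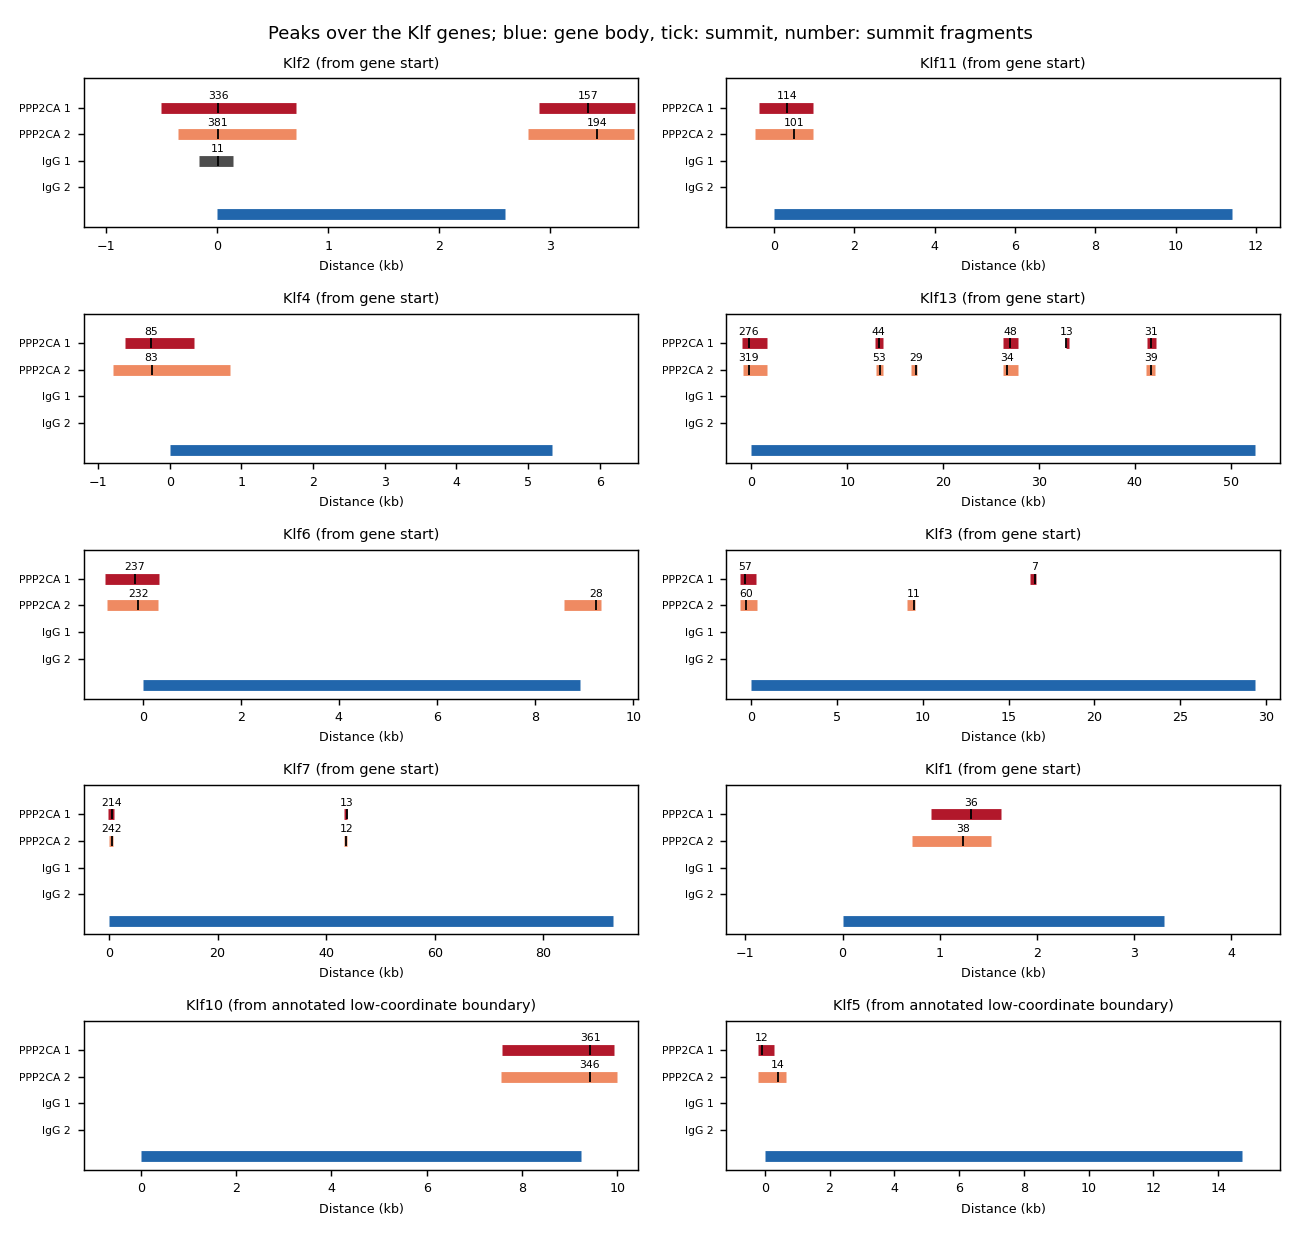
Peaks of the 4 libraries over each KLF gene, with distance in kb from the outer gene boundary on the start side (for Klf10 and Klf5 from the low-coordinate boundary); bars are peaks, black ticks summits with their fragments, and the blue bar is the gene body. The highest peak lies near one end of the gene in 9 members and further inside it in Klf1.

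Across the members with a strand, 6 of 8 had a peak of both PPP2CA libraries over the annotated start, against 36.7% of the genes with a promoter entry. The exceptions were Klf7, by the short gap above, and Klf1. Klf2, Klf3, Klf7 and Klf13 had more than 1 peak in each PPP2CA library, 4 of 10 members against 8.82% of protein-coding genes. Klf7, Klf13 and Klf3 are the longest members, at 92898, 52565 and 29381 bp, and this share was not matched on gene length. The further peaks inside Klf3 were not shared by the libraries. The fold ordered the members differently from the fragments. Klf10 and Klf13 had among the most fragments but a fold of 6.44 and 5.78 and of 6.26 and 6.37, over local backgrounds of 43.3 to 59.0 fragments. Klf5, with the fewest fragments, had a fold of 6.26 and 5.99. The fold is the authors' own value for each peak.

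The PPP2CA libraries gave the same places at most members. Merging the lists gave 20 places, of which 15 had a peak of both PPP2CA libraries, 2 of PPP2CA 1 alone and 3 of PPP2CA 2 alone. Of the PPP2CA 1 peaks at the members 88.2% (15 of 17, exact 95% interval 63.6 to 98.5) overlapped a PPP2CA 2 peak, against 75.5% of that whole list. Of the PPP2CA 2 peaks at the members 83.3% (15 of 18, 58.6 to 96.4) overlapped a PPP2CA 1 peak, against 71.6%. The intervals at the members include both values of the whole lists. The 5 places found once were those inside Klf3 and Klf13 and past the end of Klf6 given above, with 7 to 29 fragments.

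At 12 of the 15 shared places the summits lay within 100 bp of each other and their fragments could be compared. The ratio of PPP2CA 2 to PPP2CA 1 fragments, scaled by 1.09, the ratio over all 6930 such summits, ran from 0.848 at the inner peak of Klf7 to 1.16 at an inner peak of Klf13. By a two-sided exact binomial test adjusted by Benjamini-Hochberg over all 6930 summits, 0 of the 12 differed (adjusted p = 1 for each), and 0 had an unadjusted p under 0.05. Over all summits 4 did (0.0577%), and 160 had an unadjusted p under 0.05. The lowest unadjusted p was at Klf10 (exact binomial p = 0.0976, ratio 0.881, 95% interval 0.758 to 1.02). At the other 3 places, in Klf11, Klf13 and Klf5, the summits lay 180, 311 and 494 bp apart. No difference beyond counting error was found at the 12 summits, but the intervals were wide at low ones. At the inner peak of Klf7 the 95% interval was 0.354 to 2.02. Only places called in both lists with summits within 100 bp entered the test, so it does not show that the replicates were equal. The replicates were treated as libraries and not as separate animals. Nothing in the labels says that they came from separate animals.

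**Figure D3:**
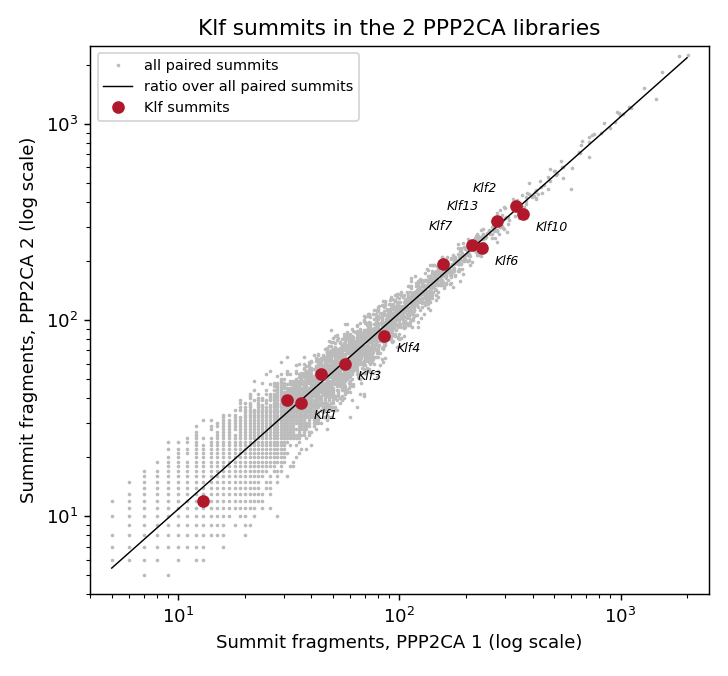
Summit fragments in PPP2CA 2 against PPP2CA 1 on log axes, for all paired summits (grey) and the 12 at KLF genes (red, the highest of each gene named); the line is the ratio over all paired summits, 1.09. The KLF points lie along the line from 13 and 12 fragments to 361 and 346.

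The 9 members other than Klf2 had no IgG peak, and the lists give no IgG value for them. The lowest summit called in either IgG list held 3 fragments. A signal equal with both antibodies, scaled by the genome-wide backgrounds of libraries with the same number, which the labels do not say are paired, would have given 38.6 and 36.0 fragments at Klf10, 29.5 and 33.2 at Klf13, 25.4 and 24.1 at Klf6 and 22.9 and 25.2 at Klf7 in IgG 1 and IgG 2. At Klf11 it would have given 12.2 and 10.5, at Klf4 9.10 and 8.64 and at Klf3 6.10 and 6.25. At Klf1 it would have been 3.85 and 3.96 and at Klf5 1.28 and 1.46. Only at Klf5 was this below the lowest called IgG summit, so its peak could not be set against IgG at this depth, and Klf1 lay close to that limit. The limit is the lowest over each whole list, and calling also depends on the local background. Whether an equal signal above the limit would have been called at a given member was not tested. At Klf2 the same scaling gave 36.0 and 39.7, where 11 fragments were found in IgG 1.

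Among all protein-coding genes Klf2 was best placed of the members by the worse of its ranks by −log10 q in the PPP2CA lists, which was 126. The genes nearest to it by that rank were Skil, which encodes the SMAD inhibitor SnoN, Zfp869 and Eif4g2, at 124, 124 and 123. Skil had 338 and 372 fragments, close to the 336 and 381 of Klf2. Zfp869 had 222 and 234 and Eif4g2, a translation initiation factor gene, had 241 and 269. None of these 3 genes had an IgG peak.

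**Figure D4:**
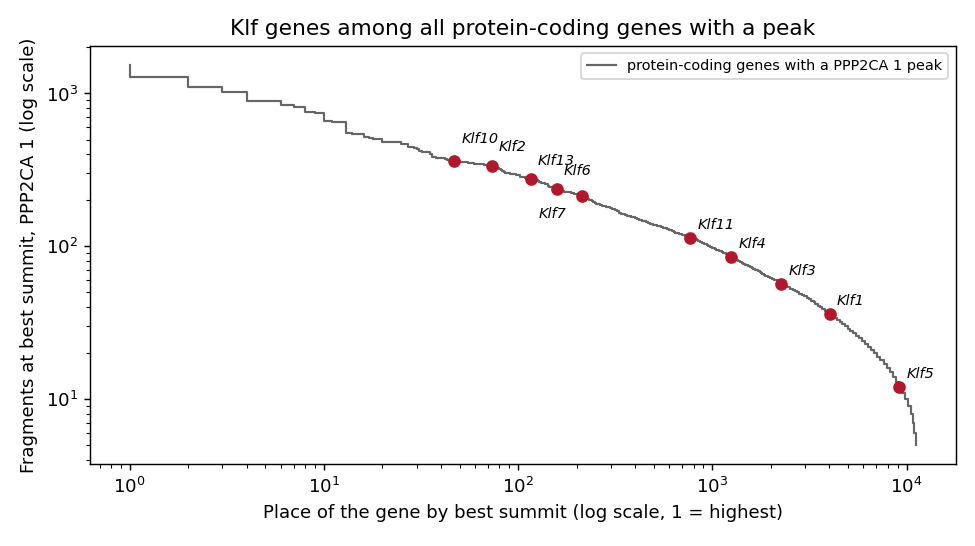
Best summit of each protein-coding gene with a PPP2CA 1 peak, ordered from highest (place 1) to lowest, on log axes, with the KLF genes as red points. Klf10, Klf2, Klf13, Klf6 and Klf7 lie at places 47 to 213, and Klf5 at place 9170.

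The rest of the family included genes with and without peaks. Of the remaining Klf and Sp genes, 9 of 16 had a peak in both PPP2CA libraries, against 47.1% of all protein-coding genes, and 3 of 16 reached 100 fragments in both, against 4.27%. Best ranked were Sp1, the general GC-box activator (282 and 315 fragments in PPP2CA 1 and 2), Klf16 (164 and 201) and Sp4 (104 and 126). The 7 without a peak in both were Klf14, Klf15, Klf17, Sp5, Sp6, Sp8 and Sp9.

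Genes for the cofactors and enzymes that work with KLF proteins had a peak in both PPP2CA libraries at 13 of 13, against 47.1% of all protein-coding genes. Sin3a, the corepressor bound by KLF10, KLF11 and KLF13, was the best ranked (275 and 283 fragments), followed by the acetyltransferase gene Ep300 (142 and 204) and Fbxw7, which encodes the ubiquitin ligase subunit that targets KLF5 (83 and 102). An IgG peak was called at 2 of the 13, against 2.08% of protein-coding genes: Ep300, with 4 fragments in IgG 2, and the corepressor gene Ctbp1, named after its values were seen, with 4 in IgG 1. The other lists around the family had no IgG peak. The MEK5, ERK5 and MEF2 pathway upstream of Klf2 and Klf4 was marked at 8 of 8, against the same 47.1%. Its best ranked were the kinase gene Map3k3 (136 and 124), Mef2d (143 and 159) and the kinase gene Map3k2 (81 and 75). The transforming growth factor beta genes around Klf10 and Klf11 were marked at 7 of 7, against 47.1%, led by the ligand gene Tgfb1 (162 and 190) and the signal transducers Smad2 (69 and 72) and Smad3 (55 and 53).

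Genes downstream of KLF factors were the last lists. Of 13 erythroid genes regulated by KLF1, 3 had a peak in both libraries, against 47.1% of all protein-coding genes: the transferrin receptor gene Tfrc (95 and 95 fragments), Bcl11a (24 and 24) and Dmtn (7 and 11). The globin genes Hba-a1, Hba-a2, Hbb-bs and Hbb-bt, picked out after their values were seen, were among the 10 without one. They are near-identical pairs, and how reads that match both copies were treated is unknown here. Of 3 lymphocyte genes regulated by KLF2, 2 were marked, against the same share: Itgb7 (41 and 42) and S1pr1 (25 and 28). Ccr7 was not. No difference between these lists was tested, and they were not matched on gene length, expression or open chromatin.

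**Figure D5:**
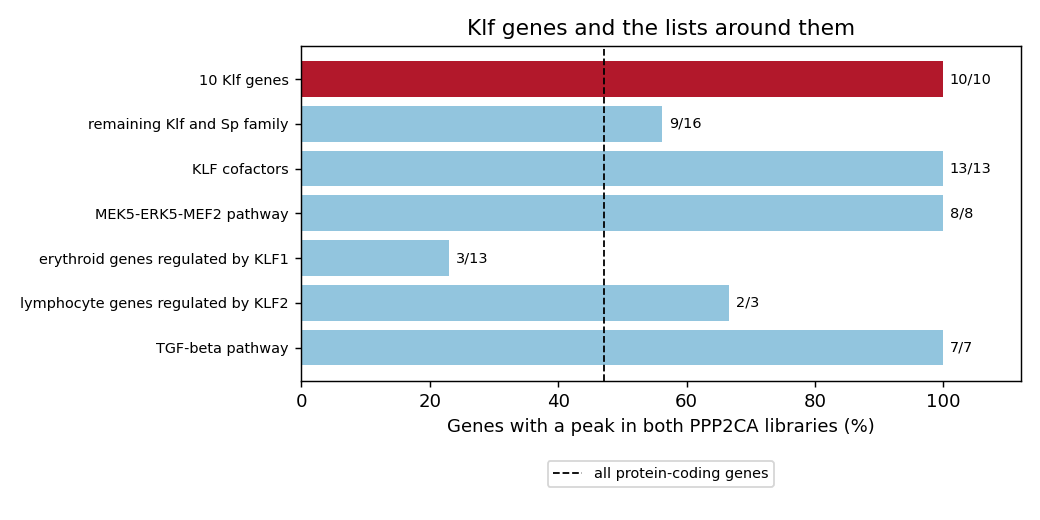
Percent of genes with a peak in both PPP2CA libraries, for the 10 KLF genes (red) and the lists around them (blue), with the count beside each bar; the dashed line marks the 47.1% of all protein-coding genes. The cofactor, MEK5-ERK5-MEF2 and TGF-beta lists are at 100%, and the erythroid list, at 3 of 13, is below the line.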

How the data were processed

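CUT&Tag peak lists of 4 libraries were used, grouped by the sample titles. The authors deposited 1 narrowPeak list per library. Per the submitters' processing notes the tools included MACS2, BWA, Trimmomatic, HOMER, ChIPseeker and deepTools and the build was GRCm38 (mm10); roles and settings are not stated. For each peak the authors deposited a fold (a ratio of its summit to local background), a −log10 p, a −log10 q and a score equal to 10 times the −log10 q within 1. Use of IgG as a control in calling is not stated.

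Fragments at each summit, and the background around it, were worked out from the deposited fold, taken as (fragments + 1) / (background + 1), and the −log10 p, taken as a Poisson tail. Only whole numbers were searched, and the best one refitted the −log10 p of every peak with a relative error of at most 8.76e-06. A second whole number fitted within the tolerance set at 5 peaks of PPP2CA 2, 12 of IgG 1 and 2 of IgG 2. The lowest background of each list, 0.784 and 0.800 fragments for PPP2CA and 0.0839 and 0.0833 for IgG, was read as its genome-wide background. Total reads were not used here. The median summit was 18 fragments in each PPP2CA list and 4 in each IgG list.

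Overlap meant at least 1 bp. Genes, promoters and strands came from RefSeq tables of GRCm38.p6; all 10 members matched by symbol, and genes starting below 3 Mb, Y aside, were left out (121). Paired summits were compared with an exact binomial test (SciPy 1.17.1, Benjamini-Hochberg by statsmodels 0.14.6) at 0.05. Intervals cover counting error only, since PCR copies are not independent molecules. Computations were tested on simulated data. The members, gene lists, motifs and thresholds were chosen with earlier results of these data known. Named genes are the members, the 3 best ranked of each other list, the 3 nearest in rank to the best member, and neighbours within 1 kb of a peak. One gene of the lymphocyte list is not reported here and was left out of its count. Other windows, peak thresholds and left-out libraries were tried as alternatives.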

Additional observations from a re-analysis of the deposited data

How the results depend on the processing

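Of the counts, all 10 members kept a peak in both PPP2CA libraries, or in the one left when the other was left out, with the gene body alone, with 5 kb flanks, within 1 kb of the boundaries only, by summit, by 50% of the peak and at −log10 q of 5. At −log10 q of 10 and at 20 summit fragments 9 did, against 28.8% and 30.5% of protein-coding genes, and with the boundaries only the share of protein-coding genes was 40.1%. That share was 45.3% with the gene body alone and 50.8% with 5 kb flanks. By summit and by 50% of the peak it was 46.6%, and at −log10 q of 5 it was 39.9%. Without PPP2CA 1 it was 52.4%, and without PPP2CA 2 it was 51.5%. The IgG peak at Klf2 was called in IgG 1 only, so members with an IgG peak numbered 0 to 1 when single libraries were left out. The share of protein-coding genes was 0.721% without IgG 1, where 0 members had one, and 1.46% without IgG 2, where 1 did. It stayed at 2.08% without either PPP2CA library. At −log10 q of 5 and of 10 the members with one numbered 0, against 0.129% and 0.0321% of protein-coding genes. Members with a peak in both PPP2CA libraries and no IgG peak ranged from 9 to 10 when single libraries were left out and from 8, at 20 summit fragments, to 10, at −log10 q of 5, under the other settings, against 9. No share of protein-coding genes is at hand for that combined count. In the main setting 47.1% had a peak in both PPP2CA libraries and 2.08% an IgG peak. The PPP2CA 1 peaks found again were 100% with the boundaries only, at −log10 q of 5 and at 20 fragments, and 92.3% at −log10 q of 10. The PPP2CA 2 peaks found again were 91.7%, 93.8% and 86.7% at the first 3 of these settings and 100% at −log10 q of 10. These settings leave out small or inner peaks, and the part of that in the shares was not tested. No shares of the whole lists under them are at hand. Thresholds of 50 and 200 fragments, chosen after seeing the data, gave 8 and 5 members in place of 6, against 12.2% and 1.09% of protein-coding genes. No paired analysis was possible because the IgG lists hold a value at Klf2 alone among the members, and in IgG 1 only, so no fit with a replicate block could be made at any member. Depth limits the IgG side, where the median summit held 4 fragments.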

Other observations

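The only peak from 1 to 5 kb outside the 10 genes lay past the end of Klf1, 2842 and 2823 bp away in PPP2CA 1 and 2, and within 1 kb of Dnase2a, which encodes the lysosomal nuclease of macrophages that digests the nuclei expelled by red cell precursors. It held 44 and 53 fragments, more than the 36 and 38 inside Klf1, and neither IgG library had a peak there. No other member had a peak at that range in any of the 4 libraries.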
